A study of Mus musculus with 12 samples.

Results

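The NR4A family of orphan nuclear receptors consists of Nr4a1 (Nur77), Nr4a2 (Nurr1) and Nr4a3 (Nor1). The 3 genes were chosen by their symbols from the 49671 genes counted in each library, and all 3 passed the filter on low counts that left 18668 genes to be tested. NR4A receptors are transcription factors that act without a known hormone, because bulky side chains fill the pocket where other nuclear receptors bind their ligand. Their activity is therefore set largely by how much of them a cell makes. They bind the NBRE (AAAGGTCA) as monomers, and Nr4a1 and Nr4a2, but not Nr4a3, can pair with the retinoid X receptors. In fibroblasts they are known as immediate-early genes, whose transcription starts within minutes of serum or growth factor addition without new protein synthesis.

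Immortalized fibroblasts derived from mouse embryos, the NIH 3T3 line, were transfected with AllStars negative control siRNA or with an siRNA against all isoforms of Lap2. Lap2 (lamina-associated polypeptide 2) is a protein of the nuclear envelope and nucleoplasm encoded by Tmpo. The cells were starved in 0.3% FBS (fetal bovine serum) and either kept there or given 15% FBS for 45 min, which made 4 groups of 3 libraries: control siRNA in 0.3% FBS, control siRNA in 15% FBS, Lap2 siRNA in 0.3% FBS and Lap2 siRNA in 15% FBS. Every group was transfected, so none shows untransfected cells, and all come from 1 cell line. The sources used here do not say whether the 3 libraries of a group came from separate cultures, so p-values measure only the spread between these libraries, which may be technical.

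The libraries held 18026298 to 26265253 counts (median 20710185). Fibroblast genes were abundant in all 12 libraries, with Col1a1 at 3851 to 8435 CPM (counts scaled to a common library total) and Vim at 2843 to 5035, whereas Ptprc of blood cells stayed at or below 0.548 and Epcam of epithelium at or below 0.0493. Tmpo fell with Lap2 siRNA from 2822 ± 57.0 to 1083 ± 97.3 normalized counts in 0.3% FBS and from 3175 ± 136 to 706 ± 87.0 in 15% FBS (SD, n = 3). Normalized counts are counts scaled by TMM (trimmed mean of M values) to a library of mean size. Scaling to total counts instead shifted the genome-wide median log2 fold change (log2FC) by -0.21 for serum with control siRNA, by -0.23 for serum with Lap2 siRNA, by 0.11 for Lap2 siRNA in 0.3% FBS and by 0.09 in 15% FBS. In bulk RNA, a change in the number of cells that express a gene and a change in RNA per cell cannot be told apart.

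In the deposited coordinates (mm10), Nr4a1 lies on the plus strand of chromosome 15 from 101266846 to 101274792, Nr4a2 on the minus strand of chromosome 2 from 57106830 to 57124003, and Nr4a3 on the plus strand of chromosome 4 from 48045153 to 48086447. In GENCODE M21, on the same assembly, Nr4a1 has 10 merged exons over 3509 bases, Nr4a2 has 10 over 4059 bases, and Nr4a3 has 9 over 5987 bases. GENCODE M21 starts Nr4a1 further upstream, at 101254269, so the authors counted on another annotation. No other gene in GENCODE M21 overlaps any of the 3, so that release holds no antisense partner of them. The annotation used for the counting could not be checked for this. None of the 50-base stretches of Nr4a1 or Nr4a2 transcripts occurred in another gene's transcripts, and 9 of 5986 (0.15%) did for Nr4a3.

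The sequences just upstream of the 3 start sites are shown because the members responded to the same stimulus to very different degrees. They are RefSeq promoters on GRCm38.p6, without the bases that GENCODE M21 annotates as exons, and run 5′ to 3′ on the strand of the gene. They come from chr15:101266596-101266845 on the plus strand (250 bases), chr2:57124004-57124253 on the minus strand (250 bases) and chr4:48045055-48045152 on the plus strand (98 bases). Capitals mark half-sites of the CRE, the cAMP response element bound by CREB and ATF proteins, in either orientation (TGACG, or CGTCA on the other strand).
Nr4a1: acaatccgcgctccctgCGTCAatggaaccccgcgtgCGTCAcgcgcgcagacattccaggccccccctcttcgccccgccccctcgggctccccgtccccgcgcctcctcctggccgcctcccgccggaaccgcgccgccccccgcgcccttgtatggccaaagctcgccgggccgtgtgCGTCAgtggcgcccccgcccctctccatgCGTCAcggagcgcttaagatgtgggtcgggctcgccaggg
Nr4a2: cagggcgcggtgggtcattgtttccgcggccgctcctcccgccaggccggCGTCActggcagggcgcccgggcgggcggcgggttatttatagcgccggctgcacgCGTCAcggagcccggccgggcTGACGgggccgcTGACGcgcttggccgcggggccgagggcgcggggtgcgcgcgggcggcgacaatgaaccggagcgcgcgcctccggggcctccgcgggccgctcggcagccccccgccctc
Nr4a3: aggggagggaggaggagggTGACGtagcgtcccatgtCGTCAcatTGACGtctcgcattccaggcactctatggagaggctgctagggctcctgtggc

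Motifs were searched on both strands of the 300-base promoter windows, from 250 bases before to 50 bases after the start site. For Nr4a3 this RefSeq start site lies inside the gene as counted, and only 98 of the 300 bases lie upstream of the deposited start. Its window and distances are therefore not like for like with those of Nr4a1 and Nr4a2. Each of the 3 windows held 4 CRE half-sites. At least 1 such half-site was present in 20.81% of the 32851 RefSeq promoters, and at least 4 were present in 0.231%. In Nr4a1 the half-sites began 233, 213, 69 and 40 bases before the start site, and all 4 lay within the CRE-like element TGACGCA. At least 1 copy of this element was found in 2.12% of promoters, and at least 4 copies in 1 promoter, that of Nr4a1 itself. In Nr4a2 the half-sites began 200, 144, 123 and 111 bases before the start site. In Nr4a3 they began 231, 213, 205 and 147 bases before it, the last within an annotated exon and so not printed. The complete CRE (TGACGTCA), found in 1.79% of promoters, was in none of the 3.

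The windows differed in their other motifs. Nr4a1 held a CArG-like box (the SRF site with 1 departure from its consensus, in 8.5% of promoters). Nr4a2 held a site of the MEF2 family (in 3.19%). The Nr4a3 window, with fewer bases upstream of the deposited start, held neither. Nr4a1 and Nr4a2 each held an EGR site (GCGNGGGCG, in 5.55% of promoters). The exact CArG box, the AP-1 site (TGANTCA) and the NBRE, in 1.63%, 7.81% and 1.51% of promoters, had no match in the 3 windows. The GC content was 72.3% for Nr4a1, 81.7% for Nr4a2 and 64.7% for Nr4a3, against a median of 52.7% over all promoters. The motif shares were not adjusted for base composition, so the half-sites, which hold a CG, cannot be told apart from what GC-rich windows carry. A match of letters is not a bound site.

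**Figure D1:**
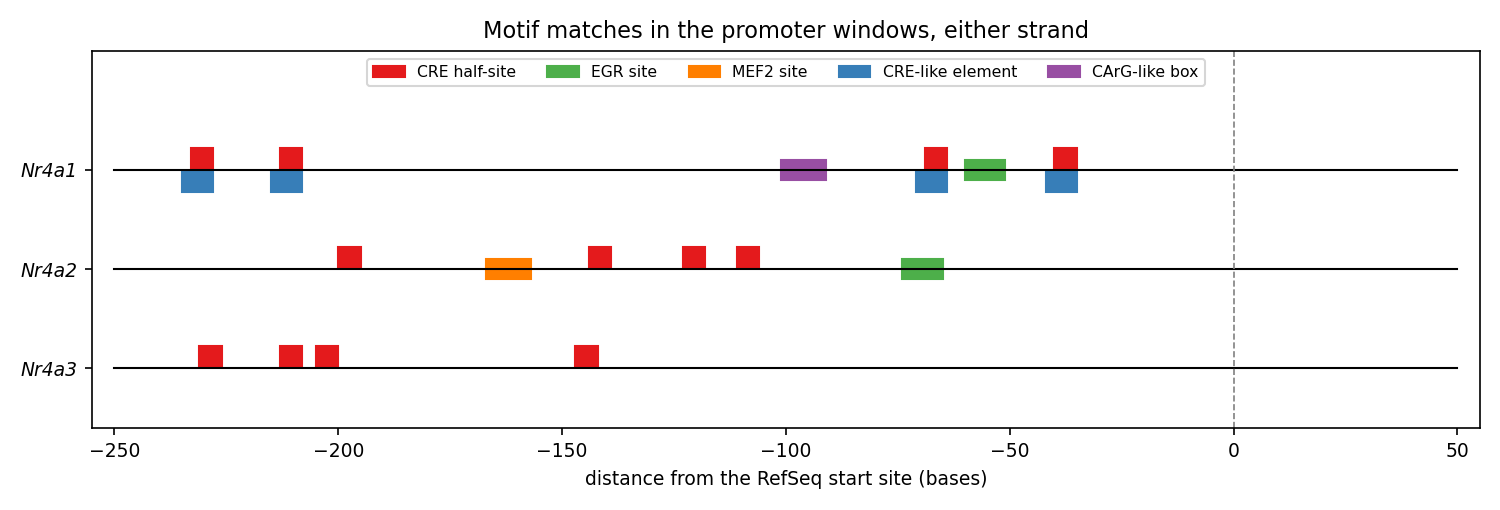
Motif matches in the 300-base promoter windows of the 3 genes, by distance from the RefSeq start site in bases (dashed line at 0). Each gene has 4 CRE half-sites (red), those of Nr4a1 all sit inside CRE-like elements (blue), and only Nr4a1 has a CArG-like box (purple) and only Nr4a2 a MEF2 site (orange).

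Serum raised all 3 genes with both siRNAs. Nr4a1, whose product can also leave the nucleus and act on Bcl2 at mitochondria, was the most abundant member in every group. In control siRNA treated cells it had 200.2, 217 and 202 normalized counts in 0.3% FBS and 60425, 61908 and 55024 in 15% FBS. In Lap2-depleted cells it had 254, 243 and 229 normalized counts in 0.3% FBS and 44705, 42999 and 37526 in 15% FBS. The libraries with and without serum were separated by orders of magnitude with either siRNA. The log2FC was 8.16 (SE 0.08, 286-fold, edgeR adjusted p = 2.5e-35) with control siRNA and 7.43 (SE 0.08, 172-fold, edgeR adjusted p = 2.0e-34) with Lap2 siRNA. By log2FC it ranked 3rd of 18668 genes with control siRNA and 1st with Lap2 siRNA.

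Nr4a3, which is closely related to Nr4a1 and overlaps with it in function, was close to undetectable in starved cells. It had 4, 6 and 4 reads in the control siRNA libraries in 0.3% FBS (3.93, 5.2 and 4.31 normalized counts) and 6, 5 and 7 reads in the Lap2 siRNA libraries (5.51, 5.2 and 7.21 normalized counts). After serum it had 955, 979 and 967 normalized counts with control siRNA, against 835, 776 and 829.9 with Lap2 siRNA. The serum libraries lay far above the starved ones in both cases. The log2FC was 7.70 (SE 0.34, 95% interval 7.02 to 8.39, edgeR adjusted p = 3.4e-28) with control siRNA and 7.06 (SE 0.30, 6.46 to 7.67, edgeR adjusted p = 3.1e-27) with Lap2 siRNA, ranking 5th and 3rd. The sums of 14 and 18 starved reads, with exact Poisson intervals of 7.65 to 23.5 and 10.7 to 28.4 that cover counting error only, limit the precision of these ratios.

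Nr4a2, known for its need in midbrain dopamine neurons, responded less. It had 38.3, 32.9 and 19.4 normalized counts with control siRNA in 0.3% FBS and 395, 405 and 419 in 15% FBS. With Lap2 siRNA it had 49.6, 66.6 and 67 normalized counts in 0.3% FBS and 619, 602 and 579.7 in 15% FBS. Again no serum library overlapped a starved one. The log2FC was 3.73 (SE 0.18, 13.2-fold, edgeR adjusted p = 6.9e-20) with control siRNA and 3.30 (SE 0.14, 9.87-fold, edgeR adjusted p = 6.5e-20) with Lap2 siRNA, ranking 192nd and 221st. With serum, 15.6% of tested genes were called higher and 13.9% lower with control siRNA, and 18.3% were called higher and 14.9% lower with Lap2 siRNA, against 3 of 3 members higher each time. The 2 serum comparisons share no library.

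**Figure D2:**
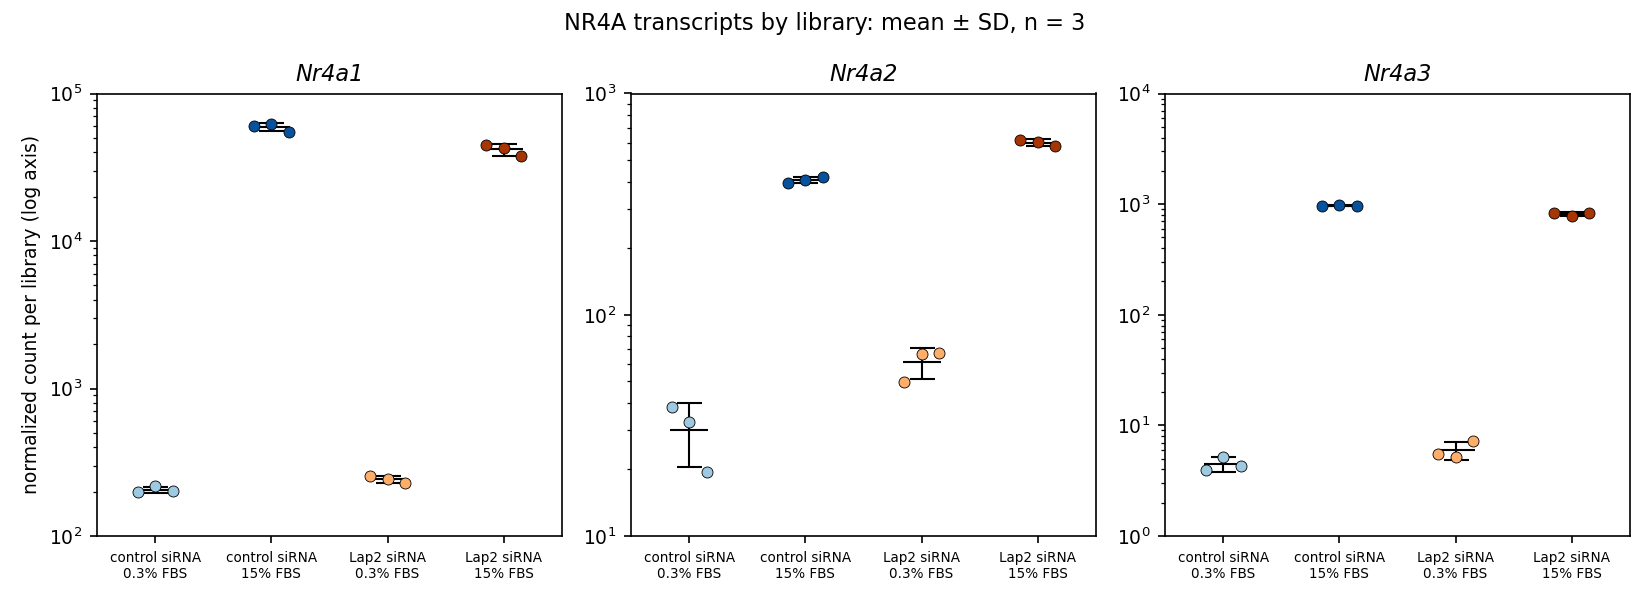
Normalized counts of Nr4a1, Nr4a2 and Nr4a3 in each of the 12 libraries (points) with the mean ± SD of each group of 3, on log axes whose ranges differ between panels. In 15% FBS the Lap2 siRNA libraries (dark orange) lie below the control siRNA libraries (dark blue) for Nr4a1 and Nr4a3 and above them for Nr4a2.

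Lap2 siRNA moved the members in different directions after serum. Nr4a1 fell from 59119 ± 3623 to 41743 ± 3750.2 normalized counts (SD, n = 3), and the highest Lap2 siRNA library (44705) lay below the lowest control library (55024). The log2FC was -0.50 (SE 0.06, 95% interval -0.63 to -0.37, edgeR adjusted p = 3.0e-07). Nr4a3 fell from 967 ± 12.2 to 814 ± 32.6, also without overlap between the groups (log2FC -0.25, SE 0.08, edgeR adjusted p = 0.021). This call was lost with scaling to total counts (log2FC -0.16, edgeR adjusted p = 0.15). It was also lost in edgeR fits without control siRNA replicate 2 (-0.24, edgeR adjusted p = 0.078) or replicate 3 (-0.25, edgeR adjusted p = 0.055) in 15% FBS, and without Lap2 siRNA replicate 2 in 15% FBS (-0.22, edgeR adjusted p = 0.11).

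Nr4a2 rose instead, from 406 ± 12.3 to 600.4 ± 19.8 normalized counts, with every Lap2 siRNA library above every control library (log2FC 0.56, SE 0.11, 95% interval 0.34 to 0.78, edgeR adjusted p = 1.4e-04). In this comparison 11.4% of tested genes were called higher and 12.1% lower, and of the members 1 was called higher and 2 lower.

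In starved cells the siRNA raised Nr4a2 as well, from 30.2 ± 9.72 to 61.0 ± 9.92 normalized counts, or 1.98-fold (log2FC 0.99, SE 0.20, edgeR adjusted p = 1.3e-04), without overlap between the groups. Nr4a1 had 206 ± 9.07 normalized counts with control siRNA and 242 ± 12.9 with Lap2 siRNA. These groups did not overlap either, but the log2FC of 0.23 (95% interval 0.04 to 0.43) missed the threshold in the main analysis (edgeR adjusted p = 0.0561), whereas it passed with DESeq2 (0.24, DESeq2 adjusted p = 0.0498) and with scaling to total counts (0.34, edgeR adjusted p = 0.0042). It also passed without control siRNA replicate 2 (0.29) or Lap2 siRNA replicate 3 (0.28) in 0.3% FBS, and without Lap2 siRNA replicate 3 in 15% FBS (0.23). Nr4a3 had 4.48 ± 0.652 and 5.97 ± 1.08 normalized counts (log2FC 0.39, 95% interval -0.51 to 1.29, edgeR adjusted p = 0.59). Its groups did not overlap, but their nearest libraries were both at 5.2 after rounding. Called genes made up 17.8% (higher) and 18.6% (lower) of those tested, against 1 member higher and 0 lower.

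The size of the serum response differed between the siRNAs for Nr4a1. Its log2FC was smaller by 0.73 with Lap2 siRNA (difference -0.73, SE 0.12, 95% interval -0.97 to -0.50, edgeR adjusted p = 1.9e-05). The differences for Nr4a2 (-0.42, -0.89 to 0.04, adjusted p = 0.25) and Nr4a3 (-0.64, -1.55 to 0.28, adjusted p = 0.47) did not pass the edgeR test, but both intervals include the -0.73 of Nr4a1, so these data do not show that the members differ in this respect. The difference was called higher for 7.09% and lower for 6.51% of tested genes, and lower for 1 of 3 members. The 1324 genes called higher became 852 without control siRNA replicate 2 in 0.3% FBS, and the 1216 called lower became 1973 without Lap2 siRNA replicate 1 in 0.3% FBS. The value of Nr4a2 was -0.64 without control siRNA replicate 1 and -0.24 without control siRNA replicate 3, both in 0.3% FBS. This comparison uses all 4 groups and so shares libraries with each one above.

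The gain in normalized counts after serum was 58913 (SE 2092) for Nr4a1 with control siRNA and 41501 (SE 2165) with Lap2 siRNA, 70.4% of the control gain. For Nr4a3 it was 962 (SE 7.08) and 808 (SE 18.9), or 83.9%. For Nr4a2 it was 376 (SE 9.06) and 539 (SE 12.8), or 143%, although its fold change was nominally smaller with Lap2 siRNA, since its starved level was already higher. The gains were computed after the counts had been seen and are given without a test. The Lap2 siRNA minus control difference in gain of -155 for Nr4a3 became -95 with scaling to total counts.

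**Figure D3:**
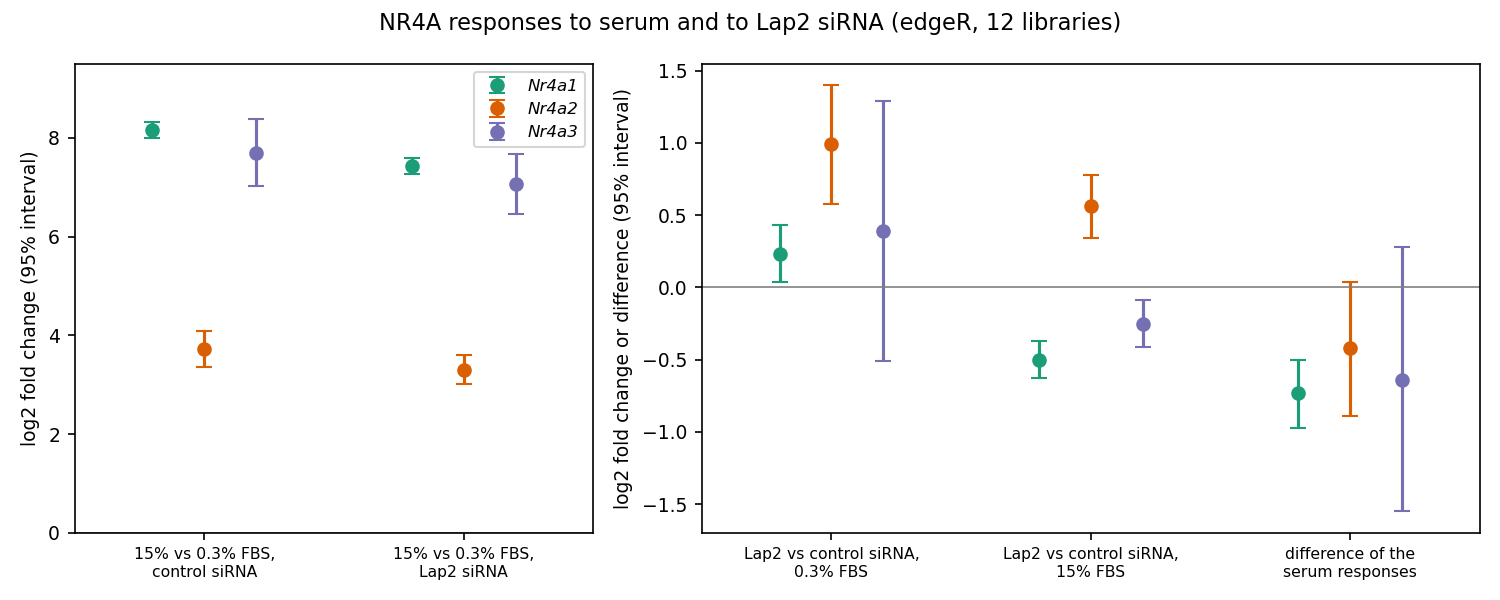
Log2 fold changes of the 3 genes with 95% intervals, from 1 edgeR fit of 12 libraries, for the serum response (left) and, at the right, for Lap2 siRNA in 0.3% and 15% FBS and for how much the serum responses differed, on axes of different range. Nr4a2 sits above 0 with Lap2 siRNA in both serum conditions, while Nr4a1 (-0.50) and Nr4a3 (-0.25) sit below 0 in 15% FBS.

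Ratios of the members within a library do not depend on the scaling between libraries. The log2 ratio of Nr4a1 to Nr4a2 reads (with 0.5 added to each count) was 2.81 ± 0.49 in control starved cells, 7.18 ± 0.13 after serum, 1.99 ± 0.31 in Lap2-depleted starved cells and 6.11 ± 0.09 after serum (SD, n = 3). After serum, Nr4a1 thus had 145 reads for each Nr4a2 read with control siRNA and 69.3 with Lap2 siRNA. The difference of -1.07 on the log2 scale separated the 2 groups completely, as did the difference of -0.81 for Nr4a3 to Nr4a2 (1.25 ± 0.04 against 0.44 ± 0.08) and that of -0.25 for Nr4a1 to Nr4a3 (5.93 ± 0.09 against 5.68 ± 0.16). Each had p = 0.1 by a two-sided exact permutation test, the smallest that 3 libraries against 3 allow, and an adjusted p of 0.15 over the 15 ratio comparisons.

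In 0.3% FBS the ratio of Nr4a1 to Nr4a2 was lower with Lap2 siRNA by 0.81 on the log2 scale (exact permutation p = 0.1), with no overlap. The ratios of Nr4a1 to Nr4a3 (difference -0.14, exact p = 0.7) and of Nr4a3 to Nr4a2 (-0.67, exact p = 0.3) overlapped between the siRNAs. Serum itself raised Nr4a1 relative to Nr4a2 by 4.38 and Nr4a3 relative to Nr4a2 by 3.83 with control siRNA, and by 4.12 and 3.69 with Lap2 siRNA. It raised Nr4a1 relative to Nr4a3 by 0.55 with control siRNA and by 0.44 with Lap2 siRNA, values that became 0.91 and 0.73 with 2 added to each count. Without Lap2 siRNA replicate 3 in 0.3% FBS, the 0.44 became 0.26. The serum responses of the ratios differed between the siRNAs by -0.25 (Nr4a1 to Nr4a2), -0.11 (Nr4a1 to Nr4a3) and -0.14 (Nr4a3 to Nr4a2). An exact permutation test over 400 arrangements gave p = 0.685, 0.68 and 0.82. It permuted the siRNA labels within each serum condition, so an siRNA shift shared by both conditions widens the values it compares against. The test therefore cannot decide whether the serum responses of the ratios differ.

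**Figure D4:**
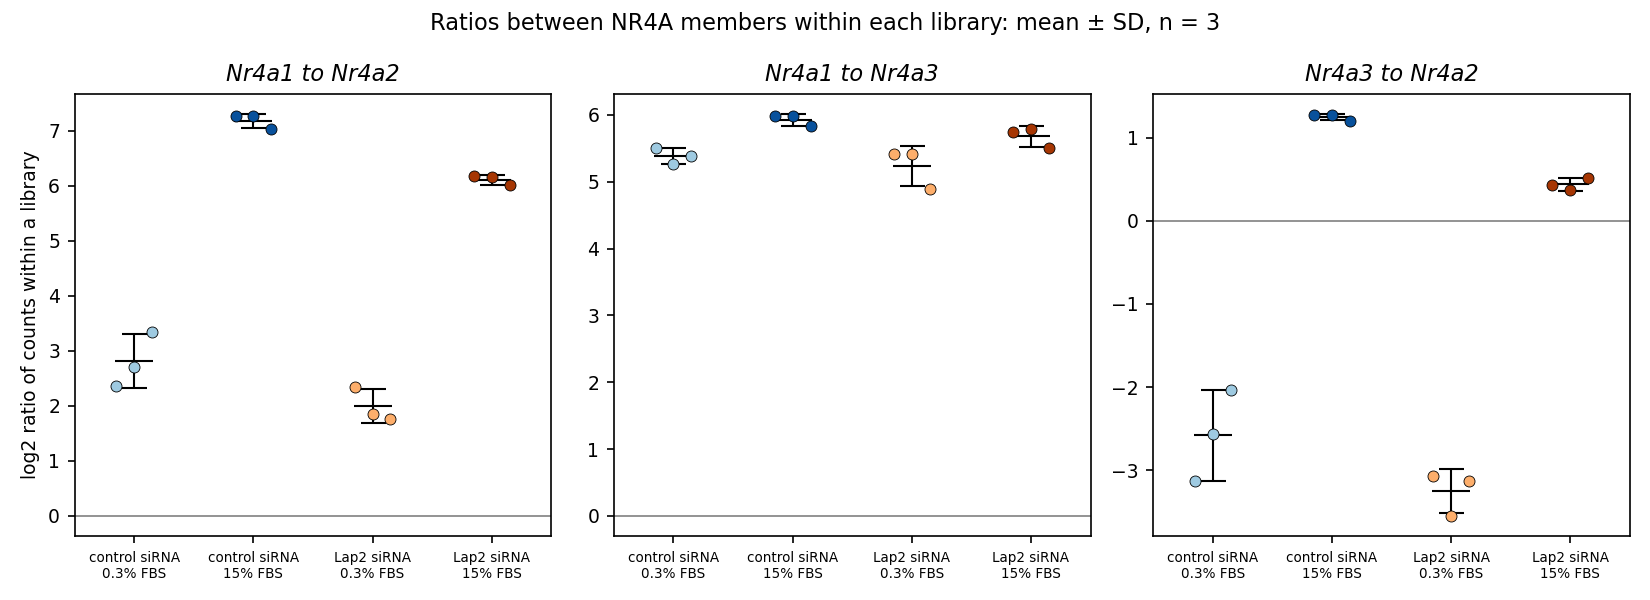
Log2 ratios of the read counts of each pair of members within each of the 12 libraries (points), with the mean ± SD of each group of 3. After serum, the ratios of Nr4a1 to Nr4a2 and of Nr4a3 to Nr4a2 are lower with Lap2 siRNA (6.11 and 0.44) than with control siRNA (7.18 and 1.25).

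Levels per length (RPKM, reads divided by merged exon length and TMM-scaled library size) allow the members to be compared with each other. In starved control cells Nr4a1 stood at 2.79 ± 0.123 RPKM, Nr4a2 at 0.353 ± 0.114 and Nr4a3 at 0.0355 ± 0.00517, and this order was the same with Lap2 siRNA (3.27 ± 0.174, 0.713 ± 0.116 and 0.0473 ± 0.00857). After serum, Nr4a1 reached 799 ± 49 RPKM with control siRNA and 564 ± 50.7 with Lap2 siRNA, ranking 48th and 59th of the 18605 genes with a length, against 9061st and 8577th without serum. It made up 98.5% and 97.7% of the family's RPKM after serum.

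Per length, the other members changed places. With control siRNA in 15% FBS, Nr4a3 (7.66 ± 0.0969 RPKM) stood above Nr4a2 (4.75 ± 0.144), and with Lap2 siRNA Nr4a2 (7.01 ± 0.231, lowest library 6.77) stood above Nr4a3 (6.44 ± 0.258, highest library 6.61). Neighbours in each order did not overlap between libraries. With the longest annotated transcript as the length, Nr4a3 and Nr4a2 stood at 8.01 and 5.40 RPKM with control siRNA. With Lap2 siRNA they stood at 6.74 and 7.98, so the order switched there too. Scaling to total counts cannot change the order within a library and is no further check. The switch depends on the lengths, since Nr4a3 had more reads than Nr4a2 after serum with both siRNAs (2.38 and 1.35 reads for each Nr4a2 read).

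The serum response set the NR4A genes apart in size from the rest of the nuclear receptor superfamily, which includes the steroid, thyroid, retinoid and fatty acid receptors. Of 46 other nuclear receptor genes, 32 were tested, and the 14 left out had at most 2 reads in any library. With control siRNA, serum raised 4 of the 32 (Ppard by 0.86 on the log2 scale, Nr1d1 by 0.70, Nr2f6 by 0.47 and Nr1h5 by 0.45) and lowered 9, among them Nr2f2 (-1.21), Rara (-0.57) and Nr2c2 (-0.55). With Lap2 siRNA it raised 8, led by Ppard (0.90), Nr3c2 (0.86) and Nr1d1 (0.78), and lowered 8, led by Nr2f2 (-1.43). The median log2FC was -0.12 and 0.07, against -0.01 and 0.0 over all genes. None of the 32 had a log2FC above 1.72, called or not, which is below the 3.30 of Nr4a2.

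**Figure D5:**
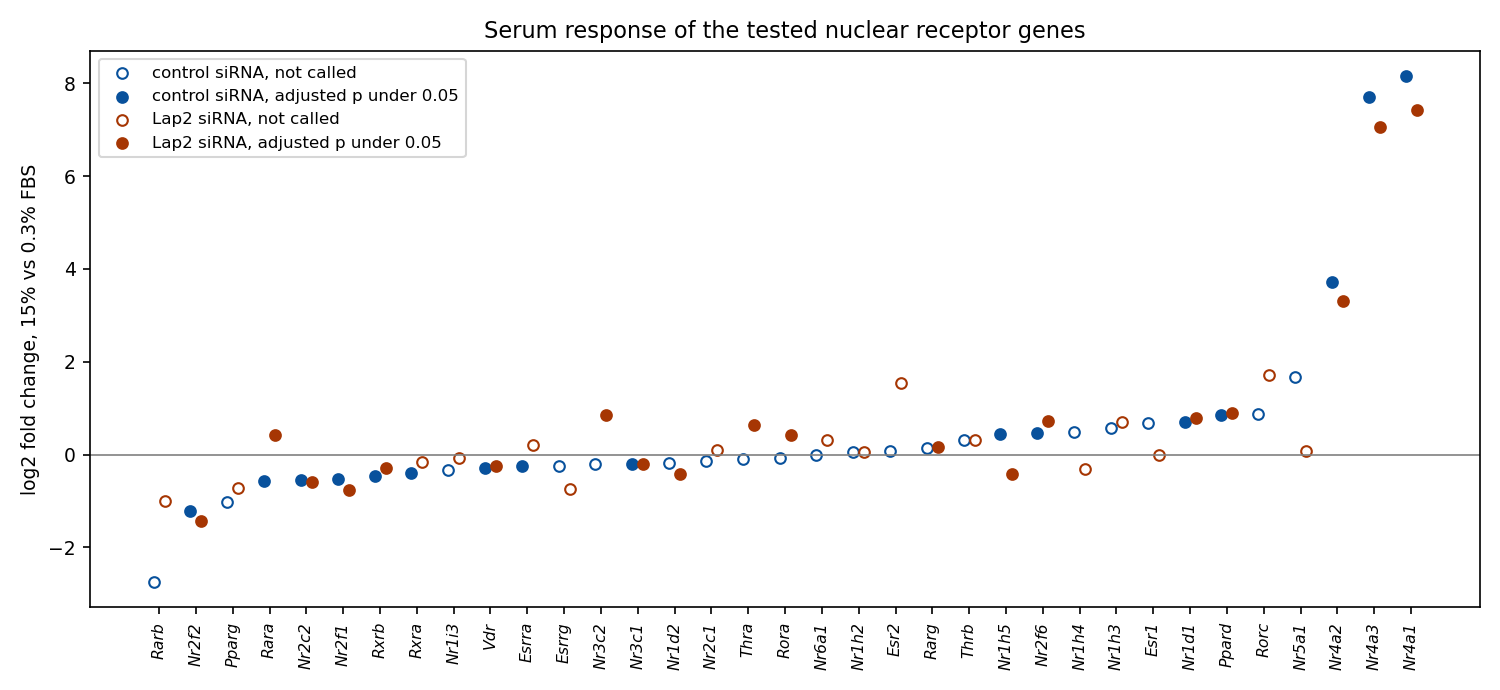
Log2 fold change in 15% against 0.3% FBS of the 32 other tested nuclear receptor genes, sorted by the response with control siRNA, and of the 3 NR4A genes at the right. Filled points passed an edgeR adjusted p of 0.05, and the NR4A points lie between 3.30 and 8.16 while the others lie at or below 1.72.

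With Lap2 siRNA, the other nuclear receptors were called higher in 9 and lower in 8 of 32 cases in 0.3% FBS (highest Pparg at 1.39, lowest Nr3c2 at -1.15). The Pparg value rests on low means of 6.07 normalized counts with control siRNA and 16.2 with Lap2 siRNA. In 15% FBS 8 were higher, led by Thrb (0.66), Nr2f1 (0.52) and Rxrb (0.46), and 4 were lower: Nr1h5 (-0.46), Rora (-0.36), Ppard (-0.26) and Nr2f6 (-0.24). Scaling to total counts made this 12 higher and 1 lower, beside 3471 higher and 1678 lower over all 18668 tested genes. The difference of serum responses was called higher for 5 (Nr3c2 1.07, Rara 1.00, Thra 0.73, Rora 0.48 and Esrra 0.45) and lower for Nr1h5 (-0.87). Over all tested genes, 17.8% were called higher and 18.6% lower in 0.3% FBS, and 11.4% and 12.1% in 15% FBS. For the difference of serum responses these shares were 7.09% and 6.51%.

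Among 17 other immediate-early transcription factor genes, serum raised all 17 with both siRNAs, with median log2FC of 5.31 and 4.92. Egr4 had the largest value with control siRNA (8.23) and Fosb with Lap2 siRNA (7.23), and the smallest were those of Klf2 (1.17 and 0.87). Nr4a1 and Nr4a3 therefore lay in the upper range of these genes and Nr4a2 below their median. With Lap2 siRNA in 15% FBS, 2 were called higher (Junb 0.29 and Ier2 0.22) and 8 lower, led by Klf2 (-0.98), Egr4 (-0.70) and Klf6 (-0.60). The difference of responses was called lower for 9, led by Fosl1 (-1.81), Egr2 (-1.22) and Egr3 (-1.11), and higher for 3, Junb (0.86), Klf4 (0.47) and Klf10 (0.44). In 0.3% FBS 8 were called higher, led by Fosl1 (1.62), and 7 lower, led by Klf4 (-0.99). The shares of all tested genes called higher and lower were 17.8% and 18.6% in 0.3% FBS, and 11.4% and 12.1% in 15% FBS. They were 7.09% and 6.51% for the difference of responses. For serum, 15.6% of all tested genes were called higher with control siRNA and 18.3% with Lap2 siRNA.

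Of 27 genes for regulators known to act on NR4A promoters, 26 were tested. Srf, the serum response factor, rose with serum by 3.74 and 3.12 on the log2 scale, and it was lower with Lap2 siRNA in 15% FBS (-0.59) with a smaller serum response (-0.62). The difference of responses was called lower for 3 of the 26 (Mef2c -0.95, Srf and Elk1 -0.34). It was called higher for 3 others (Crem 0.75, Mapk7 0.56 and Crtc1 0.37). Serum raised 11 and lowered 5 of the 26 with control siRNA and raised 12 and lowered 3 with Lap2 siRNA, and the raised genes after Srf were led by the MEF2 factor Mef2d (0.95 and 0.93). Scaling to total counts changed these counts to 8 higher and 9 lower, and to 8 and 8. With Lap2 siRNA in 15% FBS, 4 were called higher, namely Hdac9 (1.30), Atf1 (0.46), Hdac5 (0.35) and Crtc2 (0.28), and 11 lower, led by the ETS repressor Elk3 (-0.82), the kinase gene Rps6ka2 (-0.63) and Srf. The Hdac9 value rests on low means of 10.6 normalized counts with control siRNA and 26.8 with Lap2 siRNA. Creb1, which encodes CREB, was lower in 0.3% FBS (-0.21) and in 15% FBS (-0.43), whereas its relative Atf1 was higher in both (0.53 and 0.46). In 0.3% FBS 6 were called higher and 10 lower, from Mef2c at 0.67 to Elk3 at -1.06. Across all tested genes, serum led to 15.6% higher and 13.9% lower calls in control cells. In Lap2-depleted cells these shares were 18.3% and 14.9%. Depletion of Lap2 led to 17.8% higher and 18.6% lower calls in 0.3% FBS, and to 11.4% and 12.1% in 15% FBS. For the difference of responses the shares were 7.09% and 6.51%.

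Of 10 genes for NR4A partners and cofactors, 9 were tested. With Lap2 siRNA in 15% FBS, the retinoid X receptors Rxrb (0.46) and Rxra (0.31) were higher and the coactivator Ncoa1 (-0.39) was lower. In 0.3% FBS Bcl2 (0.54) and Rxrb (0.29) were higher and Ncoa1 (-0.57) lower. Serum raised Bcl2 (0.36) and Ncor1 (0.23) and lowered Rxra (-0.39) and Rxrb (-0.46) with control siRNA, and with Lap2 siRNA it raised Ncoa1 (0.39), Rcor1 (0.28) and Ncor1 (0.22) and lowered Ncoa3 (-0.30) and Rxrb (-0.29). The difference of responses was called for Bcl2 alone (-0.53). The directions for serum depended on the scaling: with total counts 0 were called higher and 5 lower with control siRNA, and with Lap2 siRNA 0 were called higher and 6 lower.

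Of 12 genes known as NR4A targets in other tissues, such as steroidogenic and dopaminergic cells, only 5 had enough reads to be tested. Skp2, for a ubiquitin ligase subunit of the cell cycle, rose with serum with control siRNA (0.32) and fell with Lap2 siRNA (-0.47), and it was higher with Lap2 siRNA in 0.3% FBS (1.01) and in 15% FBS (0.22), with a difference of responses of -0.79. Its rise with control siRNA lost its call with scaling to total counts, where 0 of the 5 genes were called in that comparison. Ret was called higher with Lap2 siRNA in 0.3% FBS (2.92), from counts near 0. No other call was made in this list.

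Likeness of profile was ranked over the 10449 genes that averaged 100 normalized counts or more. By the root-mean-square difference over the 12 libraries of log2 values centred on each gene's mean, the 5 profiles closest to that of Nr4a1 included Nr4a3 (0.44), Egr4 (0.51), Fosb (0.52) and Fos (0.65). The 5 closest to Nr4a3 included Fos (0.29), Errfi1 (0.33), Fosb (0.33) and Hbegf (0.36). Nr4a2 kept other company, with Smad7 (0.22), Spry4 (0.25), Skil (0.27), Phlda1 (0.33) and Myc (0.33). The first 2 of these, both feedback inhibitors of signalling, had fitted log2FC of 1.28 and 1.17 with Lap2 siRNA in 0.3% FBS, beside 0.99 for Nr4a2. These genes were picked for likeness over the same 12 libraries, so their similar values follow from the selection and are no separate result. The list depends on the measure, since ranking by Pearson r kept 1 of the 5 genes for Nr4a1, 2 for Nr4a2 and 1 for Nr4a3.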

How the data were processed

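RNA-seq of 12 libraries in 4 groups of 3 was used. Per the labels and the paper's methods, the authors aligned reads to mm10 with TopHat2, counted reads per gene with HTSeq and deposited raw counts without normalization. Tool versions, the annotation release and the strand setting of the counting were not given in the sources used here. A symbol was found for 99.31% of the 49671 identifiers.

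Here, counts were fitted in R 4.3.3 with edgeR 4.0.16 (TMM, glmQLFit, glmQLFTest) with group means only, after genes were dropped unless 3 or more libraries had over 1 count (18668 tested). Benjamini-Hochberg adjustment ran over all tested genes, with a threshold of 0.05. The 5 contrasts, which share groups, were 15% against 0.3% FBS for either siRNA, Lap2 against control siRNA at either serum level, and the difference of the serum responses. Standard errors are Wald errors of that fit. Member ratios were compared by two-sided exact permutation tests. The study used DESeq. DESeq2 1.42.0, 2 other scalings, 3 other filters, fits of 2 groups, the replicate number as a block and each library left out were alternatives. The edgeR step was tested on simulated data. Promoters came from RefSeq and transcripts from GENCODE M21, and tables and figures were made with Python 3.11.15.

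Total counts of 18026298 to 26265253 gave standard errors of 0.06 to 0.20 on the log2 scale for Nr4a1 and Nr4a2 within a contrast of 2 groups, and up to 0.44 for Nr4a3 in starved cells. The members and gene lists were chosen with earlier results of these data known. The genes named are the members, Tmpo, the 5 genes nearest to each member in profile, and from each list up to 3 called genes with the largest changes in each direction per contrast, or all where 5 or fewer were called. Some genes that this rule names are not reported here.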

Additional observations from a re-analysis of the deposited data

Results flagged for a closer look

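The serum response of Nr4a1 differed between the siRNAs. The log2FC was lower by 0.73 with Lap2 siRNA (difference -0.73, SE 0.12, edgeR adjusted p = 1.9e-05), and the difference lay between -0.81 and -0.67 over the fits that left out 1 library each and between -0.76 and -0.74 over the other 7 alternatives. The groups of 3 were too small for a search for single outlying libraries.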

How the results depend on the processing

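The calls for serum and for the difference of serum responses kept their direction and their side of the threshold for all 3 members under every alternative run, as did those of Lap2 siRNA for Nr4a2 in both serum conditions, for Nr4a1 in 15% FBS and for Nr4a3 in 0.3% FBS. The log2FC of Nr4a1 with Lap2 siRNA in 0.3% FBS (0.23, edgeR adjusted p = 0.0561) passed the threshold with DESeq2 (0.24, DESeq2 adjusted p = 0.0498), with any count above 0 as the filter (0.23, edgeR adjusted p = 0.0449), with total-count scaling (0.34, edgeR adjusted p = 0.0042), with upper-quartile normalization (0.25, edgeR adjusted p = 0.0436), and without control siRNA replicate 2 or Lap2 siRNA replicate 3 in 0.3% FBS or Lap2 siRNA replicate 3 in 15% FBS (0.21 to 0.29 over all libraries left out in turn). The log2FC of Nr4a3 with Lap2 siRNA in 15% FBS (-0.25) lost its call with scaling to total counts (-0.16, edgeR adjusted p = 0.15) and ranged from -0.28 to -0.22 with 1 library left out. The causes were not tested.

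With the replicate number as a block, the log2FC of Nr4a1 in 0.3% FBS was 0.23 (edgeR adjusted p = 0.034), and no other call of the members changed. The replicate numbers used here follow the order of the libraries within each group, and no label says what same-numbered libraries share. Deviations from the group means correlated between -0.12 and 0.1 for same-numbered libraries of different groups over 10449 genes, with up to 0.22 for different numbers. These values show no pairing by number but cannot establish that the libraries were unpaired.

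Leaving out 1 library turned the sign of 2 ratio differences that had not been called: Nr4a1 to Nr4a3 with Lap2 siRNA in 0.3% FBS (-0.14) ranged from -0.23 to 0.03, and the difference of serum responses of Nr4a3 to Nr4a2 (-0.14) from -0.41 to 0.13. With 2 in place of 0.5 added to each count, the rise of Nr4a1 relative to Nr4a3 with serum was 0.91 and 0.73 in place of 0.55 and 0.44. With scaling to total counts, the genes called higher and lower became 1632 and 5847 for serum with control siRNA (2915 and 2597 with TMM), and 1658 and 5951 with Lap2 siRNA (3420 and 2777), and 3471 in place of 2125 were called higher with Lap2 siRNA in 15% FBS. The few reads of Nr4a3 in 0.3% FBS limit its fold changes, and exact tests of 3 libraries against 3 cannot go below p = 0.1.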
